A study of Mus musculus with 6 samples.

Results

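The potassium channel genes of the mouse were followed in RNA from retinal endothelial cell preparations with and without Anxa3. All rows whose gene symbol begins with Kcn were taken, apart from Kcnj8 and Kcne3, which left 96 of the 24421 rows of the table. They were grouped by class into 40 voltage-gated channel subunits, 14 inward rectifiers, 14 two-pore channels, 8 calcium-activated channels and their sodium- and pH-gated relatives, 16 accessory subunits and 4 noncoding RNAs that lie at channel loci.

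The 6 libraries came from retinas of C57BL/6 pups at postnatal day 7. The 3 control libraries carried the Anxa3 fl/fl alleles without a recombinase. The 3 mutant libraries carried Anxa3 fl/fl;Tie2-Cre, in which Cre is driven by a promoter active in endothelial and blood-lineage cells. Both groups thus hold floxed Anxa3 alleles, and since Cre was present in the mutants alone, effects of Cre and of the deletion cannot be told apart. The study looked for genes that depend on annexin A3 and might bear on places where arteries and veins cross. The labels do not say how many pups gave a library, so the p-values rest on a spread among libraries that may be technical.

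Potassium channels let potassium leave or enter a cell down its gradient and so set the resting voltage and shape electrical signals. Voltage-gated subunits open on depolarization, inward rectifiers and two-pore channels hold the resting potential, and calcium-activated channels couple voltage to calcium. Accessory subunits change the gating or surface level of a pore subunit and carry no current alone. In the retina, photoreceptors carry a large voltage-gated potassium current in the inner segment, Muller glia take up potassium through inward rectifiers, and the endothelium uses inward rectifiers and small-conductance calcium-activated channels to hyperpolarize the vessel wall.

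Levels are in FPKM, a fragment count per length of gene and per depth of library, so that a comparison between genes also rests on the gene length used for each. The labelled cell type was checked against marker lists. All 10 endothelial markers were present, and their mean on the log2(FPKM + 1) scale was 5.15 to 6.24. The 9 photoreceptor markers, also all present, had a higher mean, 7.83 to 8.45. Control replicate 3 stood apart from the other libraries, with the highest endothelial and the lowest photoreceptor level. Each title also has a letter, whose meaning is not given. Letters A to C belong to controls 1 and 2 and mutant 1, and letters D to F to control 3 and mutants 2 and 3. The cut between C and D was chosen here and is not in the labels, so it stands for no known batch. Mutant replicate 1 is the lone mutant of A to C, and control replicate 3 the lone control of D to F. Anxa3 itself measured 18.7, 17.7 and 43.4 FPKM in controls 1 to 3 and 9.78, 12.5 and 15.1 FPKM in mutants 1 to 3, so its groups did not overlap (exact two-sided permutation p = 0.1, the smallest that 20 arrangements allow). Whole reads recovered from the FPKM summed to between 21380009 and 30895249 per library.

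As regulatory sequence, the 250 bases before the RefSeq start site (GRCm38.p6) are shown for Kcnj2, the inward rectifier of vessel endothelium, and Kcne2, an accessory subunit. Windows were looked up for Kcnj2, Kcne2, Kcne4, Kcne1l and Kcnma1, and only those free of annotated exons were kept, which left Kcnj2 and Kcne2. Control replicate 3 was the highest library for Kcnj2 and the lowest for Kcne2. The Kcne2 window belongs to the first of its start sites. Both windows lie on the plus strand, at chr11:111065914-111066163 and chr16:92292139-92292388, upstream of the transcripts and outside annotated exons. Capitals mark the E-box CACGTG, which begins 84 bases before the Kcnj2 start. No motif searched was found in the Kcne2 window.
Kcnj2: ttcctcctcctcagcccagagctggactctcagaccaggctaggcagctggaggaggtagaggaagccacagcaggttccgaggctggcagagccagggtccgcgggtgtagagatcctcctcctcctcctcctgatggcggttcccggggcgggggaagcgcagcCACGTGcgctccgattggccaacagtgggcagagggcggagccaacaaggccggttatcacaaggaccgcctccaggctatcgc
Kcne2: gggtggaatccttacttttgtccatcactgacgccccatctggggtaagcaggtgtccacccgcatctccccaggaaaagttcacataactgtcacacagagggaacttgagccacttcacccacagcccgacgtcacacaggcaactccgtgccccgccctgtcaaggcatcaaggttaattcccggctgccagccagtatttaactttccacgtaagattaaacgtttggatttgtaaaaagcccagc

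The Kcnj2 window was 65.6% G and C with 14 CpG steps, and the Kcne2 window was 52.4% G and C with 9. Promoter windows were found for 70 of the 96 members. Each was searched on both strands for TAATCC, the core of sites bound by photoreceptor homeodomain factors, for the ETS core GGAAGT, for CACGTG and for TATAAA, motifs that were chosen with the sequences in view. CACGTG reads the same on both strands. CACGTG was held by 5 of the 70 (7.14%), Kcnj2 among them, against 6.86% of 27025 genes with a window. TAATCC was held by 2 members, Kcnj9 and Kcnrg (2.86%, against 7.21% of all), GGAAGT by 10 (14.3% against 22.2%) and TATAAA by 3 (4.29% against 14.3%). A match is a description of these letters and not a binding site.

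The members differed widely in level, and a few genes held a large share of it. The summed FPKM of all 96 members was 442, 460 and 417 in controls 1 to 3 and 456, 429 and 444 in mutants 1 to 3. Voltage-gated subunits held 60.8% to 64.6% of that sum, accessory subunits 15.7% to 17.8%, calcium-activated channels 9.37% to 12.4%, inward rectifiers 3.20% to 5.28% and two-pore channels 2.92% to 4.29%. Kcnv2 alone held 22.4%, 18.8% and 14.6% of it in the controls and 23.3%, 17.0% and 16.9% in the mutants, and with Kcnma1 the share ran from 22.7% to 30.5%. The groups overlapped in the total, and each class kept its rank in every library apart from the inward rectifiers and two-pore channels, which changed places between libraries. Of the 96 members, 9 averaged at least 10 FPKM, 38 stayed under 1 FPKM in every library, and 2, Kcna10 and Kcnk16, were listed at 0 in all libraries.

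**Figure D1:**
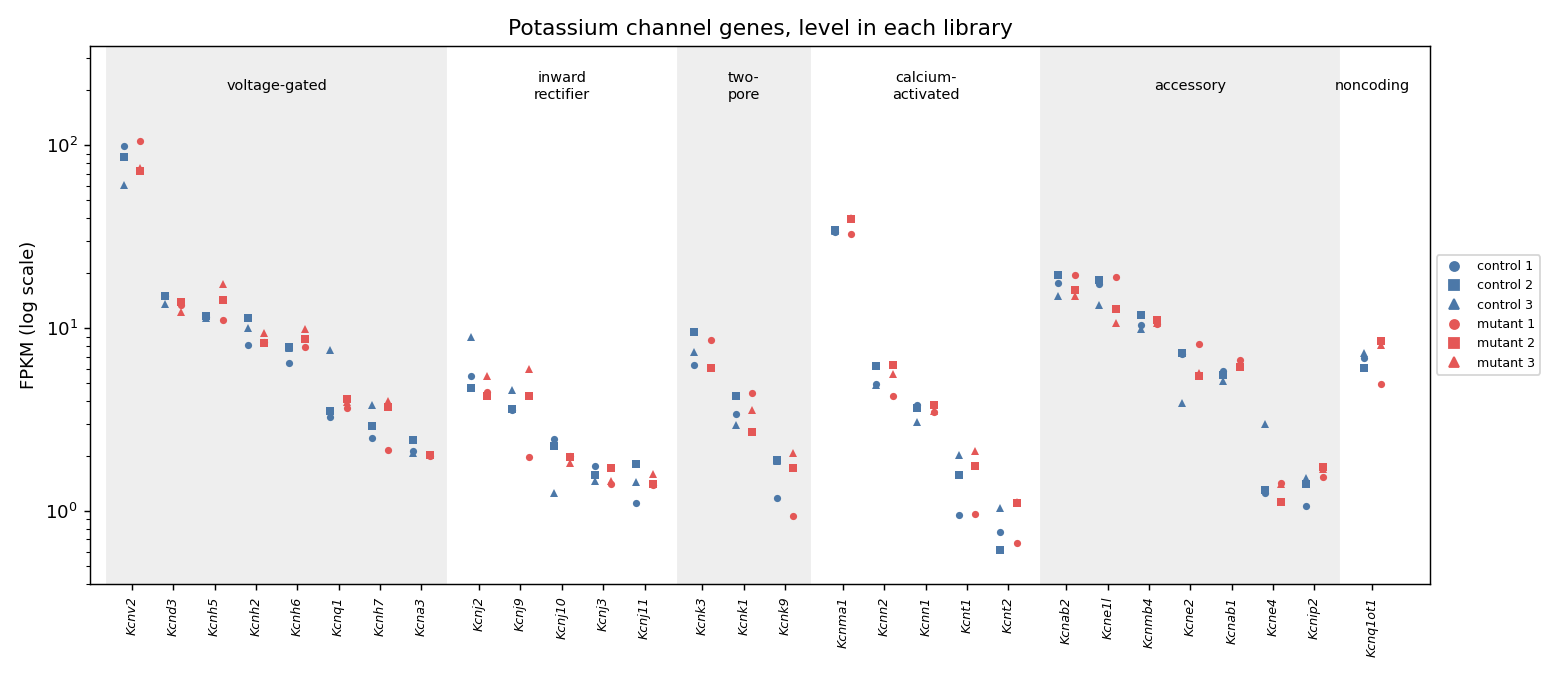
FPKM (log scale) of 29 potassium channel genes described here, of the 51 tested, by class, with 1 point per library, controls in blue and mutants in red. Kcnv2 stands above the other genes shown, followed by Kcnma1, and the colours overlap for most genes.

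In the mutant against control comparison, no potassium channel gene passed the test. Of the 96 members, 51 reached 1 FPKM in at least 3 libraries and were tested, and every one of these reached it in at least 1 library of each group. On limma with Benjamini-Hochberg adjustment over all 13622 genes tested, 0 of the 51 passed an adjusted p under 0.05, where 0.0% of all genes did. The targeted gene, Anxa3, did not pass it either (log2 difference -0.93, limma unadjusted p = 0.020). At an unadjusted p under 0.05 there were again 0 of 51, where 1.21% of all genes fell under it. Limma voom on the recovered reads also gave 0 members at either threshold. The smallest unadjusted p among the members was 0.107, and the adjusted p was 1 for each. Of the 51, 26 were higher and 25 lower in mutants, with a median log2 difference of 0.00, from -0.33 for Kcnj2 to 0.26 for Kcnh5, and the median over all genes tested was -0.01. The 95% confidence intervals of all 51 lay within a 2-fold change on the log2(FPKM + 1) scale, as did those of 96.6% of all genes tested, and 40 of them (78.4%) lay within 1.5-fold, against 83.7% of all genes. That scale understates changes of low genes, so the bound is loose for members near 1 FPKM.

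**Figure D2:**
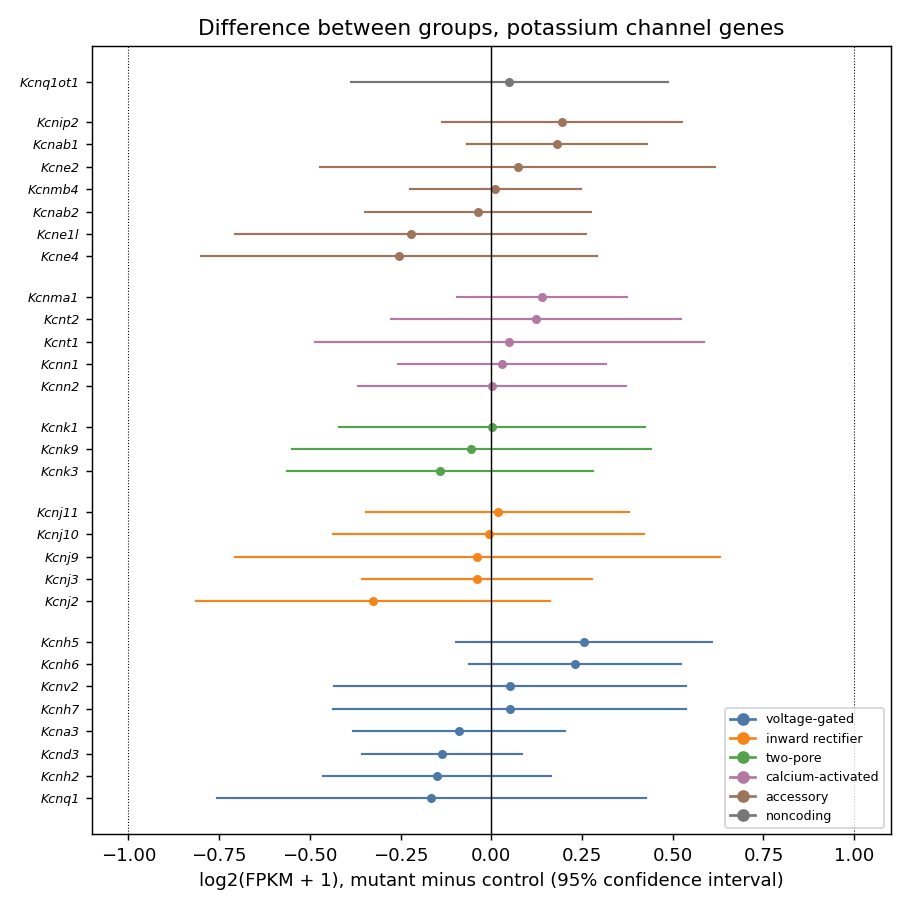
Difference between mutant and control means in log2(FPKM + 1) for the same 29 genes, with the limma 95% confidence interval, coloured by class. Dotted lines mark a change of 2-fold on this scale. Every interval spans 0 and stays between the dotted lines.

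Among the voltage-gated subunits the highest gene was Kcnv2, a silent subunit that forms no channel alone and shapes the inner segment current of photoreceptors. Kcnv2 measured 98.9, 86.6 and 60.9 FPKM in controls 1 to 3 and 106, 72.8 and 75.2 FPKM in mutants 1 to 3. It was highest in mutant replicate 1 and higher in the libraries lettered A to C than in those lettered D to F, and the groups overlapped. The group means were 82.2 ± 19.4 and 84.7 ± 18.7 FPKM (SD, n = 3 each). The log2 difference was 0.05 (limma standard error 0.210, 95% confidence interval from -0.43 to 0.54). Within letters A to C it was 0.20, and within D to F it was 0.28. With the letter division as a block it was 0.24 (95% confidence interval from 0.05 to 0.43, limma adjusted p = 0.718), and with library weights it was -0.23 (adjusted p = 0.160). Those weights lay mostly on control replicate 2 and mutant replicate 2. In GRCm38, Kcnv2 is a plus-strand gene at chromosome 19, bases 27322588 to 27337179.

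Kcnv2 varied with the photoreceptor markers across libraries. The photoreceptor level, the mean log2(FPKM + 1) of 9 markers, was 8.31, 8.25 and 7.83 in controls 1 to 3 and 8.45, 8.06 and 8.08 in mutants 1 to 3. The 6 libraries fell in the same order by that level and by Kcnv2. The summed photoreceptor markers ranged from 3218 to 4621 FPKM in controls and from 3768 to 5028 FPKM in mutants, with 0 of 9 at 0. The part of photoreceptor RNA in these values was not tested, and in bulk RNA a different number of cells of a type and a different amount of RNA per cell cannot be told apart.

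**Figure D3:**
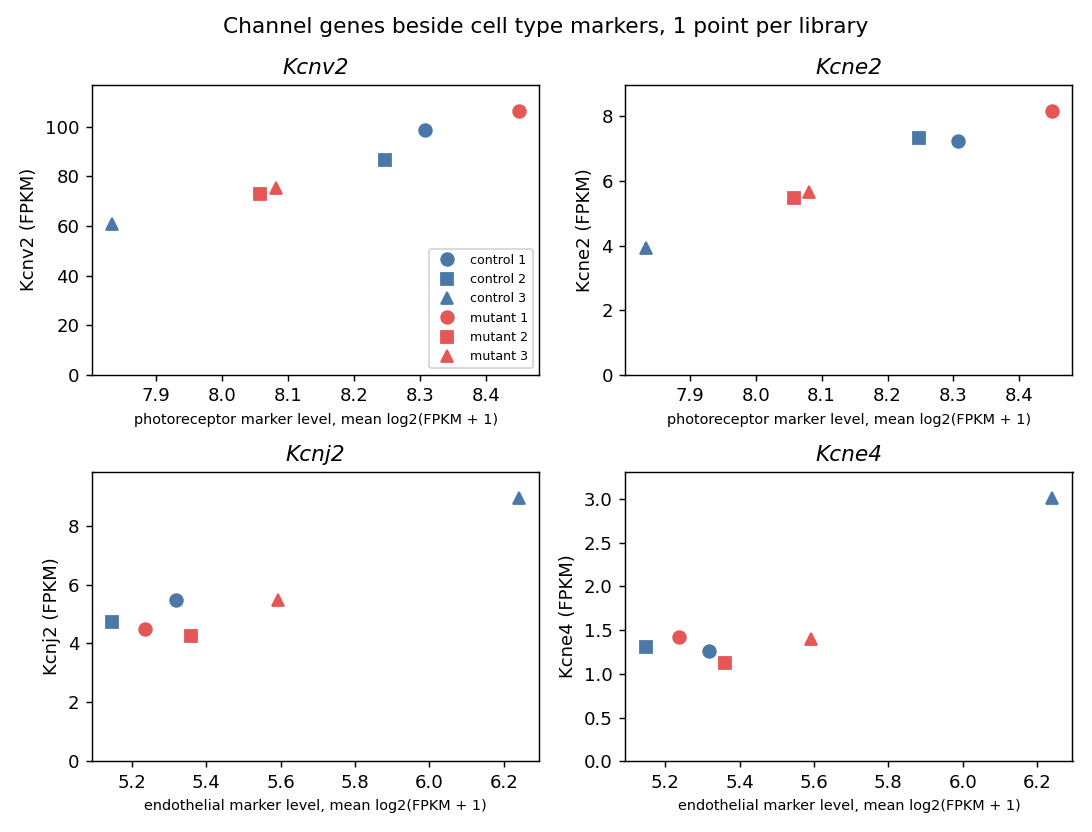
FPKM of Kcnv2 and Kcne2 against the photoreceptor marker level (top), and of Kcnj2 and Kcne4 against the endothelial marker level (bottom), each level being the mean log2(FPKM + 1) of its list, with 1 point per library. The top genes are lowest in control replicate 3 and highest in mutant replicate 1, whereas the bottom genes lie close together in 5 libraries and higher in control replicate 3. Kcnv2 and Kcnj2 were listed as channels known for 1 cell type, but Kcne2 and Kcne4 were not.

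Kcnd3 and Kcnh5 lay well under Kcnv2. Kcnd3, an A-type channel pore, measured 15.04, 14.9 and 13.6 FPKM in controls and 13.3, 13.8 and 12.2 FPKM in mutants. Mutant replicate 2 lay inside the control range, and the log2 difference was -0.14 (limma standard error 0.095, unadjusted p = 0.194). Kcnh5, an ether-a-go-go channel, measured 11.5, 11.7 and 11.4 FPKM in controls and 11.04, 14.2 and 17.4 FPKM in mutants. Its controls lay close together, while the mutants spread from below to well above them, and the log2 difference was 0.26 (standard error 0.152, unadjusted p = 0.132). Within letters A to C the mutant stood at -0.07 against the controls, and within D to F at 0.43. The difference was 0.11 without mutant replicate 3 and 0.41 without mutant replicate 1 (95% confidence interval from 0.14 to 0.69, limma adjusted p = 0.877).

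The ether-a-go-go related genes Kcnh6 and Kcnh2 differed in sign. Kcnh6 had the smallest unadjusted p of all members (0.107), at 6.48, 7.88 and 7.83 FPKM in controls and 7.87, 8.74 and 9.94 FPKM in mutants, a log2 difference of 0.23 (standard error 0.126, 95% confidence interval from -0.06 to 0.52). Its groups overlapped by a narrow margin, since mutant replicate 1 lay just under control replicate 2. Kcnh2, whose current repolarizes the heart, measured 8.09, 11.4 and 10.04 FPKM in controls and 8.45, 8.31 and 9.40 FPKM in mutants, a log2 difference of -0.15 (standard error 0.135). Kcna3, a channel of lymphocytes and microglia among other cells, was the 1 voltage-gated member among those tested whose groups did not overlap. It measured 2.12, 2.46 and 2.08 FPKM in controls and 2.002, 2.04 and 2.03 FPKM in mutants, a log2 difference of -0.09 (standard error 0.126, unadjusted p = 0.501). From 83 to 129 reads lay behind each Kcna3 value.

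Groups did not overlap for 3 of the 51 members (5.88%), where 4.35% of all genes tested did so in either direction, which is near the background. Those higher in mutants were the accessory subunits Kcnab1 and Kcnip2 (2.79% of all genes), and the lower one was Kcna3 (1.56% of all genes).

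The inward rectifiers were led by Kcnj2, which holds the resting potential of endothelium and muscle. Kcnj2 measured 5.47, 4.74 and 8.93 FPKM in controls 1 to 3 and 4.50, 4.24 and 5.48 FPKM in mutants 1 to 3. Control replicate 3 stood far above the rest, and the remaining controls lay within the mutant range. The group means were 6.38 ± 2.24 and 4.74 ± 0.655 FPKM (SD, n = 3 each), and the log2 difference of -0.33 was the most negative of the members (limma standard error 0.210, 95% confidence interval from -0.81 to 0.16, unadjusted p = 0.160). Within letters A to C the difference was -0.15, and within D to F, where control replicate 3 is the lone control, it was -0.77. Without control replicate 3 the difference was -0.09. With the letter division as a block it was -0.46 at an unadjusted limma p of 0.028 and an adjusted p of 0.718, and over all alternatives its adjusted p ran from 0.322 to 1. The gene lies on chromosome 11 from 111066164 to 111076821, directly after the window shown above.

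Kcnj2 shared its peak in control replicate 3 with Kcne4 and Kcnq1. That library was the highest for 7 of the 51 members tested (13.7%), against 24.4% of all genes tested. Kcnq1 was chosen after its values were seen. Kcne4, an accessory subunit that inhibits several voltage-gated channels, measured 1.26, 1.31 and 3.01 FPKM in controls and 1.43, 1.12 and 1.40 FPKM in mutants. Kcnq1, the pore of the slow cardiac and epithelial current, measured 3.28, 3.53 and 7.59 FPKM in controls and 3.65, 4.10 and 3.98 FPKM in mutants. Control replicate 3 exceeded the mean of the other 5 libraries 1.83-fold for Kcnj2, 2.31-fold for Kcne4 and 2.05-fold for Kcnq1. The same ratio was 1.86 for the summed endothelial markers and 1.56 for the summed pericyte and smooth muscle markers. The log2 differences were -0.25 for Kcne4 and -0.17 for Kcnq1, and without control replicate 3 they became 0.02 and 0.16.

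The endothelial markers summed to 454 to 988 FPKM in controls and 497 to 655 FPKM in mutants, and the pericyte and smooth muscle markers to 163 to 309 and 194 to 238 FPKM, with 0 of 10 and 0 of 8 at 0. All 10 endothelial markers had negative differences, with a median of -0.18 on the log2 scale, and 0 passed on limma, with 0 at an unadjusted p under 0.05. By library, their sums were 513, 454 and 988 FPKM in controls 1 to 3 and 497, 534 and 655 FPKM in mutants 1 to 3. Only control replicate 3 lay above all mutants, and controls 1 and 2 lay below mutants 2 and 3. The part of these cells in the 3 channel values was not tested. Kcnq1 overlaps the antisense RNA Kcnq1ot1 on chromosome 7, and the library kit keeps no strand, so reads of the pair cannot be told apart. In all, 29 members overlap exons of another gene on the opposite strand. Kcnq1ot1 measured 6.86, 6.03 and 7.37 FPKM in controls and 4.95, 8.51 and 8.05 FPKM in mutants. It was lowest in mutant replicate 1 and did not share the peak of Kcnq1 in control replicate 3.

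The remaining inward rectifiers were lower. Kcnj9, a G-protein-gated subunit of neurons, measured 3.57, 3.60 and 4.61 FPKM in controls and 1.97, 4.24 and 5.97 FPKM in mutants, so that the mutants spanned both ends of the range. Kcnj10, through which Muller glia take up potassium, measured 2.47, 2.26 and 1.26 FPKM in controls and 2.01, 1.97 and 1.83 FPKM in mutants. It was lowest in control replicate 3, and its log2 difference was -0.01 (standard error 0.185). The Muller glia and astrocyte level was 4.73 to 4.90 in controls and 4.65 to 4.91 in mutants. Kcnj3, a neuronal and atrial G-protein-gated subunit, ranged from 1.40 to 1.77 FPKM and Kcnj11, the pore of the ATP-sensitive channel, from 1.11 to 1.82 FPKM over the 6 libraries. Of 7 inward rectifiers tested, 2 were higher and 5 lower in mutants.

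Among the two-pore channels, 3 of 14 were tested. Kcnk3, an acid-sensitive background channel, measured 6.29, 9.53 and 7.41 FPKM in controls and 8.67, 6.04 and 6.08 FPKM in mutants. The highest and lowest libraries came from different groups, but mutant replicate 1 lay between the higher controls, and the log2 difference was -0.14 (standard error 0.182, unadjusted p = 0.460). Kcnk1, a weakly inward rectifying background channel, ranged from 2.70 to 4.45 FPKM. Kcnk9, a relative of Kcnk3 that is also acid-sensitive, ranged from 0.943 to 2.08 FPKM on 24 to 70 reads. The mechanically gated Kcnk2 stayed between 0.550 and 0.892 FPKM and Kcnk6 between 0.453 and 0.992 FPKM, under the filter.

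The calcium-activated class was led by Kcnma1, the pore of the large-conductance channel. It measured 33.4, 34.3 and 34.0 FPKM in controls and 32.8, 39.7 and 40.2 FPKM in mutants, with 5420 to 9687 reads behind each value. The controls lay within a narrow band, with mutant replicate 1 below it and the other mutants above it. The log2 difference was 0.14 (limma standard error 0.101, 95% confidence interval from -0.10 to 0.37, unadjusted p = 0.209). Within letters A to C it was -0.04, and within D to F it was 0.23. It ran from 0.09 without mutant replicate 3 to 0.23 without mutant replicate 1, and it was 0.10 without mutant replicate 2 and 0.09 with the letter block, with limma adjusted p from 0.070 to 1 over all alternatives. Kcnmb1, its accessory subunit in smooth muscle, stood at 0.186 to 0.397 FPKM, whereas Kcnmb4, the accessory subunit of neurons, stood at 9.92 to 11.8 FPKM. All 5 calcium-activated members tested had positive differences, from 0.00 to 0.14, and 0 of the 5 passed.

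The small-conductance channel Kcnn2 ranged from 4.25 to 6.28 FPKM and Kcnn1 from 3.09 to 3.82 FPKM. The sodium-activated Kcnt1 measured 0.956, 1.58 and 2.02 FPKM in controls and 0.966, 1.76 and 2.12 FPKM in mutants, over much the same range in both groups. Kcnt2, a relative of Kcnt1, ranged from 0.616 to 1.13 FPKM. Kcnn3 and Kcnn4, the calcium-activated channels known from endothelium, were below 1 FPKM in every library. Kcnn3 measured 0.0808 to 0.289 FPKM in controls and 0.112 to 0.326 FPKM in mutants, and Kcnn4 0.175 to 0.436 and 0.117 to 0.247 FPKM. Kcnn4 was highest in control replicate 3, on 5 to 23 reads per library, whereas Kcnn3 was highest in mutant replicate 3, on 18 to 69 reads. Kcnj13, a channel of the pigment epithelium, lay between 0.0286 and 0.336 FPKM, and Kcnk13, a channel of microglia, between 0.137 and 0.462 FPKM. The microglial level was 1.56 to 1.85 in controls and 1.22 to 1.85 in mutants, and both it and Kcnk13 were lowest in mutant replicate 1.

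Accessory subunits were led by Kcnab2, a cytoplasmic subunit of Shaker-type channels, at 14.9 to 19.6 FPKM. Kcne1l, also known as Kcne5 and an inhibitor of Kcnq1 channels, measured 17.5, 18.4 and 13.4 FPKM in controls and 19.2, 12.8 and 10.7 FPKM in mutants. Its mutants held the highest and the lowest values of the 6, and the log2 difference was -0.22 (standard error 0.209, unadjusted p = 0.320). It ran from -0.44 without mutant replicate 1 to -0.05 without mutant replicate 3, and it was -0.04 with the letter block and -0.45 with library weights, with limma adjusted p from 0.056 to 1 over all alternatives. Kcne2, which modifies ether-a-go-go related and other channels, measured 7.25, 7.34 and 3.92 FPKM in controls and 8.16, 5.46 and 5.67 FPKM in mutants. It shared its lowest library, control replicate 3, and its highest, mutant replicate 1, with Kcnv2 and the photoreceptor level. Kcne2 was not listed as a channel of photoreceptors, and its match with their markers was not tested. The log2 difference of Kcne2 was 0.07 (standard error 0.235), at 0.14 within letters A to C and 0.42 within D to F. With the letter block it was 0.28 (95% confidence interval from 0.03 to 0.53, limma adjusted p = 0.718), and with library weights it was -0.30 (adjusted p = 0.120).

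Kcnab1, which gives Shaker-type channels fast inactivation, measured 5.86, 5.54 and 5.17 FPKM in controls and 6.69, 6.11 and 6.39 FPKM in mutants. Every mutant lay above every control, by a small step. The log2 difference was 0.18 (limma standard error 0.107, 95% confidence interval from -0.07 to 0.43, unadjusted p = 0.129, adjusted p = 1). It was 0.20 within letters A to C and 0.23 within D to F, and from 0.14 to 0.22 when single libraries were left out. Kcnip2, a calcium-binding partner of A-type channels, measured 1.07, 1.41 and 1.52 FPKM in controls and 1.54, 1.74 and 1.70 FPKM in mutants on 81 to 135 reads. The mutants again lay above the controls, and mutant replicate 1 and control replicate 3 were almost level. The log2 difference was 0.20 (standard error 0.143, unadjusted p = 0.210), at 0.19 within A to C and 0.11 within D to F. Of 12 accessory members tested, 8 were higher and 4 lower in mutants.

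Much of the spread among members followed single libraries. Mutant replicate 1 was the lowest library for 22 of the 51 members tested (43.1%), against 19.2% of all genes tested, and the highest for 6 (11.8%), against 23.5%. Among the 22 were Kcnj9, Kcnk9, Kcnn2, Kcnh5 and Kcnma1. The level of 10 amacrine, horizontal and ganglion cell markers was also lowest in mutant replicate 1, at 2.42, next to 2.45 in control replicate 1 and 2.61 to 2.79 in the remaining libraries. These markers summed to 85.7 to 94.5 FPKM in controls and 81.8 to 97.5 FPKM in mutants, with 0 of 10 at 0, and their part in the channel values was not tested. The ratio of the highest to the lowest library had a median of 1.61 over the 51 members and 1.37 over all genes tested. The members and all genes were not matched by level, and the part of few reads in this ratio was not tested.

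**Figure D4:**
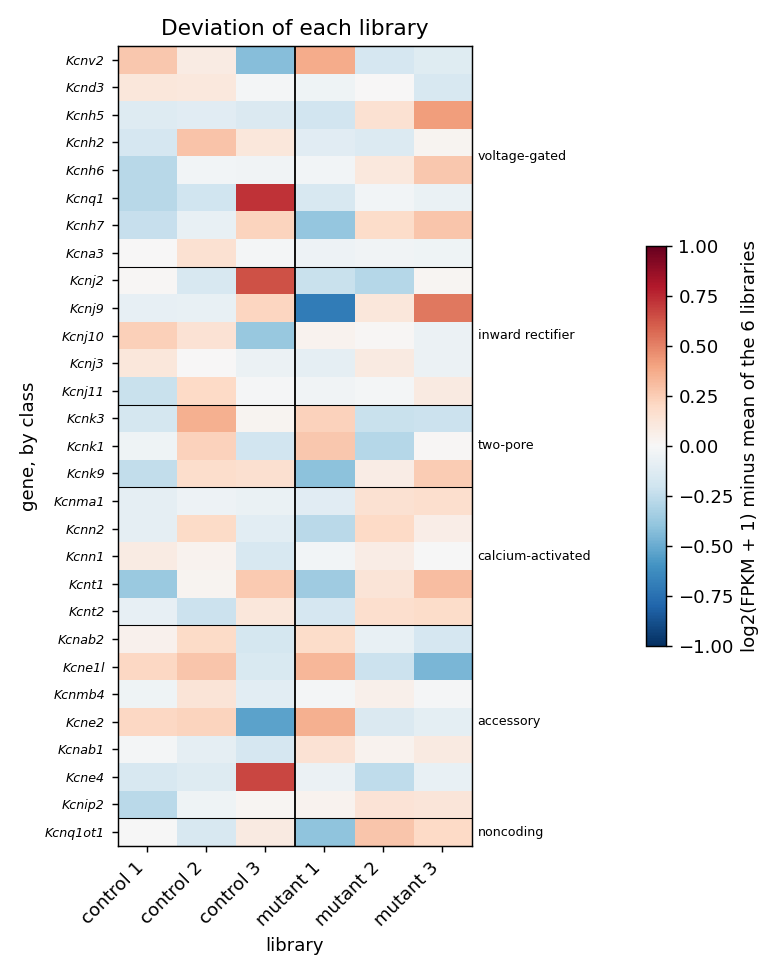
Deviation of each library from the mean of the 6 libraries, in log2(FPKM + 1), for the same 29 genes, by class; red is above and blue below the mean. The red cells of control replicate 3 mark Kcnj2, Kcne4 and Kcnq1, and the blue column of mutant replicate 1 includes Kcnj9 and Kcnk9.

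Other genes that set or use the potassium gradient also gave no call. Of 26 partners, among them sodium pump subunits, pacemaker channels, potassium-chloride cotransporters and channel-associated proteins, 22 were tested, 8 were higher and 14 lower in mutants, and 0 passed on limma, with 0 at an unadjusted p under 0.05. Their median log2 difference was -0.02, against -0.01 over all genes. The pump subunit Atp1b2 ranged from 193 to 296 FPKM, with its highest value in mutant replicate 1 as for Kcnv2. Dpp10, which escorts A-type channels to the surface, measured 3.19, 2.60 and 2.39 FPKM in controls and 2.78, 3.49 and 3.98 FPKM in mutants, a log2 difference of 0.24 (unadjusted p = 0.159 on limma). Slc12a5, the neuronal potassium-chloride exporter, measured 41.3, 50.2 and 47.6 FPKM in controls and 43.4, 50.6 and 59.5 FPKM in mutants, a log2 difference of 0.13.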

How the data were processed

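RNA from retinal endothelial cell preparations was sequenced in 6 libraries, grouped by genotype in the labels. The values deposited by the authors are FPKM, with a column for each library. The tools named, per the submitters' processing notes, are Cufflinks 2.2.1, STAR 2.5.0b, DESeq2 and bedtools 2.17.0 with the build mm10, and their roles and the gene annotation are not stated there. Of the symbols, 27 had become dates and 2 were duplicated.

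Low FPKM were whole multiples of 1 read's worth. Depth was found from miRNA rows of known length. Whole reads were recovered for each of the 16491 rows with no value of 0, at a tolerance of 0.002 reads that grows to 0.05 for high counts. Each read number is the smallest that makes a row whole.

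The test was limma 3.58.1 (R 4.3.3), two-sided and with a trended prior, on log2(FPKM + 1) of genes reaching 1 FPKM in 3 or more libraries, Benjamini-Hochberg adjusted over all genes. The fit was tested on simulated data. Named members were the 5 highest of each class, the 5 smallest p in each direction, members whose groups did not overlap and channels known for 1 cell type. From the partners, the 3 highest and the 2 with the smallest p were named. Some genes that this rule names are not reported here. The members, lists and tests were chosen with earlier results of these data known. Positions came from GENCODE M21 (GRCm38, also called mm10) and promoters from RefSeq, by symbol. Alternatives were another pseudocount (0.1), 2 filters, quantile normalization, blocks for replicate number and letter, library weights, voom and the omission of each library. Python 3.11.15 and matplotlib 3.10.9 were also used.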

Additional observations from a re-analysis of the deposited data

How the results depend on the processing

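The count of potassium channel genes past the threshold was 0 under all 14 alternatives, and 0 over all genes except with library weights (145 genes, 0 of them potassium channel genes). The library weights were 0.747, 3.35 and 0.260 for controls 1 to 3 and 0.295, 7.00 and 0.746 for mutants 1 to 3. Control replicate 2 and mutant replicate 2 carried most of the weight in their groups, so the weighted values rest mostly on them. At an unadjusted limma p under 0.05 there were 17 of 51 members with library weights (smallest adjusted p 0.056, Kcne1l), against 4069 of 13622 genes. There were 4 members with the letter block (927 of all genes), 3 without mutant replicate 1 (679) and 1 with the replicate block (296). With no filter there was 1 of 94 members, against 376 of 19903 genes. The count of members lower in mutants, 25 of 51, ran from 19 to 34 over single omitted libraries and was 48 of 94 with no filter on low values. The Anxa3 log2 difference was negative under every alternative, from -1.15 to -0.53 over single omitted libraries. Deviations from the group means correlated at 0.249, -0.151 and 0.391 between libraries of equal number. Between libraries of unlike number they ran from -0.352 to 0.231. These values do not settle whether libraries of equal number are paired. With the replicate block 0 members passed and the Anxa3 difference was -0.93. Of 18 genes whose difference the text gives, 12 kept their sign under all 14 alternatives. With library weights Kcnv2 became -0.23, Kcnq1 0.12 and Kcne2 -0.30. With the letter block Kcnj10 became 0.10, and with a pseudocount of 0.1 Kcnj10 became 0.0079. Over single omitted libraries the difference ran from -0.15 to 0.20 for Kcnv2, from -0.35 to 0.16 for Kcnq1, from -0.20 to 0.11 for Kcnj10, from -0.29 to 0.0012 for Kcnk3, from -0.18 to 0.20 for Kcne2 and from -0.40 to 0.017 for Kcne4. The cause was not tested. Few reads limit the precision of members near 1 FPKM, such as Kcnk9.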

Other observations

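The gene length that makes the reads of a row whole can be set beside the summed exon length of the gene in GENCODE M21. Of the 51 members tested, 23 had a length within 10% of that annotation, and 9 had less than 0.5 times it. For Kcnk9 the length was 1209 bases against 12300, for Kcnh7 3798 against 15226, for Kcnmb4 1005 against 3324 and for Kcnma1 7836 against 16976. The FPKM of a member, and so its rank among the channels, depends on the gene model behind it. So do the filter at 1 FPKM and, through the added 1 FPKM, the log2 difference of a low gene. These members were chosen after their values were seen.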
